A study of Homo sapiens with 12 samples.

Results

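Copper was given for 24 h to HepG2 cells that lack a working ATP7B gene, and their transcripts were compared with those of the same knockout line left untreated. HepG2 is an established human line from a liver tumour that still makes many hepatocyte products. The comparison holds 6 of the 12 libraries of the study, all those labelled ATP7B KO: 3 treated with Cu for 24 h and 3 untreated, numbered as biological replicates in the labels. The other 6 libraries are wild type HepG2, 3 also labelled as treated with Cu for 24 h and 3 untreated. They are used here for the spread between libraries and for 1 test of the difference between the lines. All 6 knockout libraries share the loss of ATP7B, so the comparison shows the copper response in that background and not the effect of the loss. The labels do not name the copper salt or its dose, how the gene was disrupted, or how many clones were used. Total RNA, 100 ng a sample, was made into libraries with the QuantSeq method, which reads each transcript near its 3′ end, so counts do not scale with transcript length.

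ATP7B is a copper-transporting ATPase of the hepatocyte that loads copper onto ceruloplasmin and moves the surplus into bile, and inherited loss of it causes Wilson disease, in which the liver accumulates copper. Inside a cell, free copper is bound by metallothioneins, small cysteine-rich proteins whose genes are switched on by the zinc sensor MTF1 at metal response elements. Copper also oxidises thiols and unfolds proteins, and cells are known to answer such injury with heat shock proteins, proteasome subunits and the antioxidant genes controlled by NRF2.

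The 3 copper libraries held 2388597 to 2807634 counts and the untreated ones 1443372, 976658 and 3277087 counts. Untreated replicates 1 and 2 stood apart from replicate 3. Across the 11051 tested genes, which are not independent replicates, their log2 levels correlated with those of replicate 3 at 0.82 and 0.79, with each other at 0.92, and with the copper libraries at 0.69 to 0.73. Replicate 3 correlated at 0.88 with each copper library and at 0.92 with each untreated wild type library, and the copper libraries correlated with one another at 0.98. Values in counts per 1000000 of the library's total (CPM) are therefore given library by library for the knockout. Their order is replicates 1, 2 and 3. For some genes named below only the log2 fold change or the outcome of the test is given, and their single libraries are not shown. A count of 3, taken as the floor of detection, is 2.08, 3.07 and 0.915 CPM in the untreated libraries. ATP7B itself was counted at 9.01, 2.05 and 11.6 CPM in untreated and 3.92, 4.19 and 6.77 CPM in copper-treated knockout libraries, and at a mean of 12.7 ± 0.353 (SD, n = 3) CPM in untreated wild type libraries. A tag at the 3′ end can lie outside a small deletion or frameshift, so these counts do not test the knockout. The HepG2 markers were all present: 12 of 12 passed the filter on low counts, with ALB, the main plasma protein, at 935, 888 and 1177 CPM in untreated and 426, 405 and 401 CPM in copper-treated libraries. Of 4 endothelial markers, 3 were matched and none passed the filter, and 2 of 6 blood markers and 4 of 7 fibroblast markers passed it.

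Of 11051 genes tested, 3721 (33.7%) differed between copper and untreated knockout cells at an adjusted p under 0.05, 1675 of them higher after copper (15.2%) and 2046 lower (18.5%). With library totals in place of the trimmed-mean scaling, the called genes that rose made up 34.1% in place of 45%. With limma voom, at the same trimmed-mean scaling, they made up 53.2%. The balance of rises and falls therefore depends on both the scaling and the test. The median log2 fold change over all tested genes was 0.01, and it shifted by -0.12 with library totals only. Because 2 of the 3 untreated libraries were shallow and unlike the other, a call is said to have held when it kept its direction and an adjusted p under 0.05 without each of the 6 knockout libraries in turn. Under that rule 949 genes rose (8.59%) and 1115 fell (10.1%). Every omission leaves untreated replicate 1 or 2 among the controls, so a change carried by both of them can still hold. Against untreated replicate 3 alone 2768 genes were called, 1294 higher and 1474 lower, and against replicates 1 and 2 alone 6635, 3412 higher and 3223 lower. Without copper replicate 1 there were 2373. In CPM, the 3 copper libraries lay entirely above the 3 untreated ones for 2112 genes (19.1%) and entirely below them for 2779 (25.1%).

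**Figure D1:**
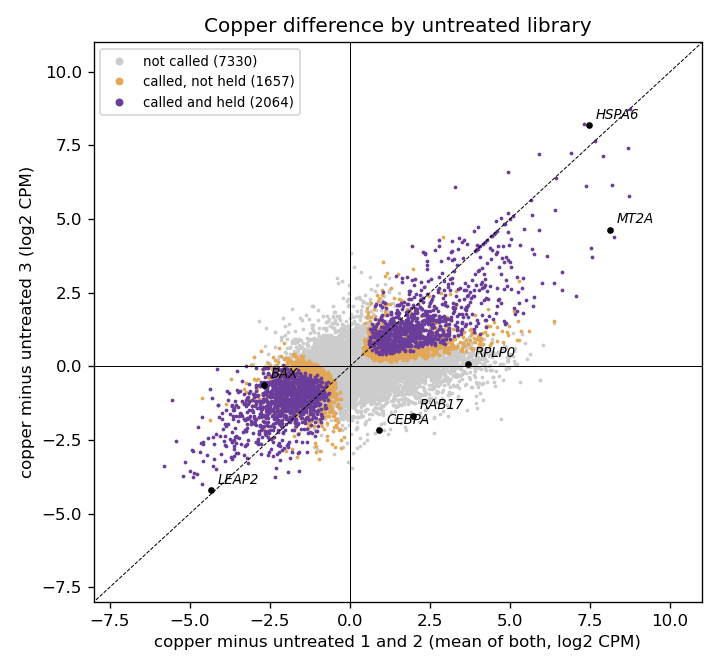
Each point is 1 of the 11051 tested genes; the horizontal axis is the mean log2 CPM of the copper libraries minus the mean of untreated replicates 1 and 2, the vertical axis the same minus untreated replicate 3, and the dashed line marks equality. Purple points are the 2064 genes whose call held; RPLP0 and CEBPA show genes that read differently against the untreated libraries.

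The metallothioneins, copper- and zinc-binding proteins of the cytosol, rose throughout. All 10 tested members rose and all 10 calls held, with a median log2 fold change of 5.84 against 0.01 over all tested genes. Together the family took 0.0105%, 0.00666% and 0.0803% of counts in the untreated libraries and 2.01%, 1.77% and 1.88% after copper. MT2A, the most counted member, went from 60.3, 29.7 and 520.0 CPM to 12120, 10424 and 11216 CPM (log2 fold change 5.95 ± 0.94 SE, adjusted p = 0.000777). The 3 copper values were close together, and untreated replicate 3 lay above the other two but far below all of them. MT1G was counted at 9.01, 8.19 and 75.1 CPM without copper and 3711, 3516 and 3589 CPM with it (log2 fold change 6.94 ± 0.79 SE, adjusted p = 0.000101), and MT1F at 19.4, 18.4 and 47.6 and 776, 699.6 and 731 CPM. MT1X went from 5.54, 1.02 and 4.27 CPM to 141, 145 and 143 CPM (log2 fold change 5.31 ± 0.32 SE, adjusted p = 1.77e-06). For these members the groups did not overlap. MT1B had no count in any untreated library and 166, 155 and 164 CPM after copper, at least 308-fold higher when the floor of 3 counts over the untreated group stands for 0. MT1M had 2 untreated counts in all against 1206 after copper, a ratio of 446-fold (95% counting interval 123 to 3684). MT1H was at 0 in the untreated libraries and 8.55, 12.1 and 11.1 CPM with copper, at least 19.96-fold higher. The members are closely similar in sequence, so reads may have been shared or lost between them, and the split by member is uncertain.

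**Figure D2:**
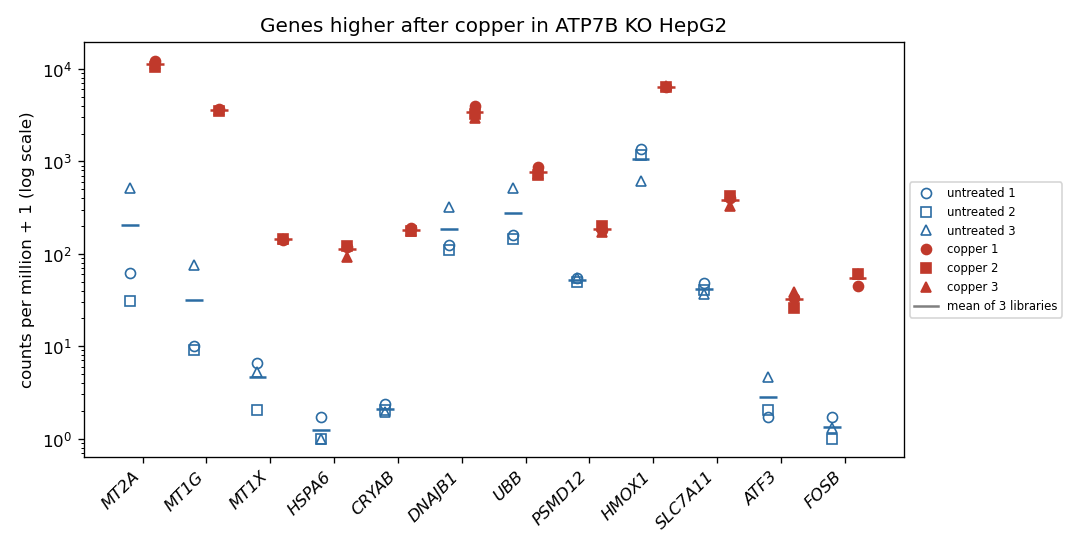
CPM plus 1 on a log scale for 12 genes that rose, in each untreated (open blue) and copper-treated (filled red) ATP7B KO library, with the mean of 3 as a line. All 3 copper points lie above all 3 untreated points for each gene; MT2A and DNAJB1 show untreated replicate 3 above replicates 1 and 2, HMOX1 below them.

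Promoters are shown for the 4 tested metallothioneins that RefSeq's promoter table (GRCh38.p14) lists, because the family moved as a whole, and for HSPA6, the heat shock gene that rose most. Each is the plus strand of the 250 bases before the gene's start, 5′ to 3′, with capitals on the metal response element (TGCACNC or TGCGCNC, either strand) for the metallothioneins and on paired heat shock units (GAANNTTC or TTCNNGAA) for HSPA6. Adjoining matches can overlap in these capitals.
MT1B, chr16:56651636-56651885: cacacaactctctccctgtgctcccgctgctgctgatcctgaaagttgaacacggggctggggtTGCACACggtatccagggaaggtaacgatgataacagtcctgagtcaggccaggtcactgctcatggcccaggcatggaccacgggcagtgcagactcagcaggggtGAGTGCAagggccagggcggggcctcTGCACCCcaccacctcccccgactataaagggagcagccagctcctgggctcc
MT1H, chr16:56669564-56669813: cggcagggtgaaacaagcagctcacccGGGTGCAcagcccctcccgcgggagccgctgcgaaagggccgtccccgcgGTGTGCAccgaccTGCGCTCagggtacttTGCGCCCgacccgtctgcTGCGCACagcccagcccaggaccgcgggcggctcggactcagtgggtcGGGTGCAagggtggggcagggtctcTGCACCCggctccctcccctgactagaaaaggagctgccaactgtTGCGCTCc
MT1X, chr16:56682220-56682469: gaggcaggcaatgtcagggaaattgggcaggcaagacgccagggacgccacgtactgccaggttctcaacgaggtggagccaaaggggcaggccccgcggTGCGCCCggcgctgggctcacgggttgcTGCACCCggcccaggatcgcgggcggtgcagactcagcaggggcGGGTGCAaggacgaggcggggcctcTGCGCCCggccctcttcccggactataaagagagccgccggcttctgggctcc
MT2A, chr16:56608334-56608583: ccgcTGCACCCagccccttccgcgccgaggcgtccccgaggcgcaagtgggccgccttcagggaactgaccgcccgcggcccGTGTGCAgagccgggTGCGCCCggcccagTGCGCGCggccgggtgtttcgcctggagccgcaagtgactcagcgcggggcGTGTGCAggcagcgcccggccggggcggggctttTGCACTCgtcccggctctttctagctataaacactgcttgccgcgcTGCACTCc
HSPA6, chr1:161524290-161524539: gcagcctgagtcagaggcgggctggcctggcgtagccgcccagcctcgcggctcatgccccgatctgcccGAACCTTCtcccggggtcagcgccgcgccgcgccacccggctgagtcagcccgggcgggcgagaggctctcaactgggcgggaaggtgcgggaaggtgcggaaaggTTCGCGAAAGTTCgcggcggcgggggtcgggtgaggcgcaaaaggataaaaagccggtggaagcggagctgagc
The windows held 3 matches in MT1B, 8 in MT1H, 4 in MT1X, 7 in MT2A and 3 in HSPA6. The letters of the metal response element are common: with the 50 bases after the start included, 39.2% of the 8580 tested promoters held at least 1, as did 34.6% of the 740 promoters of genes that rose and held and 40.2% of the 864 that fell and held. The paired heat shock unit was in 9.74% of tested promoters, 13.1% of those that rose and 8.45% of those that fell. The antioxidant response element (TGACNNNGC or TGANTCAGC) was in 15.9%, 22.6% and 14.8% of the same sets, and the AP-1 site (TGAGTCA or TGACTCA), which can lie within the second form of that element, in 2.95%, 5.54% and 1.85%. The cAMP response element (TGACGTCA) was in 3.54%, 5% and 1.85%. These are shares of letters within a short window, not sites shown to be bound.

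Heat shock genes of several classes rose, where 15.2% of all tested genes rose and 18.5% fell. In the HSP70, HSP110 and DNAJ list 10 of 18 tested members rose and none fell (by edgeR 1 fell at an unadjusted p under 0.05, by DESeq2 none), 7 of the calls held, and the median log2 fold change was 0.87. HSPA6, the strictly stress-induced HSP70, had 1 untreated count in 3 libraries and 118, 122 and 90.8 CPM after copper, a ratio of 629-fold (95% counting interval 113 to 24873). DNAJB1, the co-chaperone that delivers clients to HSP70, went from 122, 109.6 and 316 CPM to 3983, 3290.2 and 2962 CPM (log2 fold change 4.36 ± 0.38 SE, adjusted p = 1.27e-05). HSPH1, the HSP110 exchange factor, was at 431, 413 and 295 CPM and then 3092, 3717 and 3234 CPM (log2 fold change 3.25 ± 0.26 SE, adjusted p = 8.07e-06). Every copper library was above every untreated one for all 3. HSPA8, the constitutive HSP70, did not pass the test, at 265, 249 and 81.5 CPM before and 287, 358 and 324 CPM after (log2 fold change 0.80 ± 0.41 SE, adjusted p = 0.142). Untreated replicates 1 and 2 lay just below the copper values and replicate 3 far below.

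Among the small heat shock proteins, 4 of 9 tested members rose and 3 fell, so the list did not move one way. Both were above the shares over all tested genes, 15.2% and 18.5%. CRYAB, the alpha-B crystallin that holds unfolded protein, was near or under the floor at 1.39, 1.02 and 0.915 CPM and rose to 189, 176 and 174 CPM (log2 fold change 7.47 ± 0.28 SE, adjusted p = 2.20e-08). BAG3, which joins small heat shock proteins to HSP70, went from 9.70, 11.3 and 26.2 to 329, 306 and 282 CPM (log2 fold change 4.33 ± 0.34 SE, adjusted p = 8.01e-06). HSPB1 was at 17.3, 11.3 and 118 CPM without copper and 282, 265 and 239 CPM with it (log2 fold change 2.51 ± 0.59 SE, adjusted p = 0.00691), with untreated replicate 3 well above the other two, and the call was lost with only the 6 knockout libraries (adjusted p = 0.0597). CRYAA fell, from 64.4, 81.9 and 41.2 CPM to 14.96, 16.3 and 18.7 CPM, a call lost in edgeR against untreated replicate 3 alone (log2 fold change -1.13, adjusted p = 0.051). In the HSP90 list 12 of 26 tested members rose and 1 fell (9 and 1 held), the rises above and the falls below the shares over all tested genes. HSP90AA1, the inducible HSP90, rose from 3204, 2653 and 3802 CPM to 16830, 16976 and 15425 CPM (log2 fold change 2.47 ± 0.22 SE, adjusted p = 1.65e-05). CHORDC1, an HSP90 co-chaperone, rose from 21.5, 13.3 and 51.3 to 521, 577 and 488 CPM (log2 fold change 4.27 ± 0.37 SE, adjusted p = 1.30e-05). The ATPase activator AHSA1 went from 139, 144 and 330.5 to 664, 612 and 586 CPM. The groups were apart for each of them. HSPE1, the mitochondrial co-chaperonin, did not pass (log2 fold change 1.95 ± 0.79 SE, adjusted p = 0.0735): its untreated values were 21.5, 40.96 and 334 CPM against 562, 399 and 423 CPM with copper.

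Many genes of the ubiquitin and proteasome system rose. In the proteasome list 24 of 35 tested members rose, against 15.2% of all tested genes, and 1 fell, 19 and 1 held, and the median log2 fold change was 1.57. PSMD12, a lid subunit, was at 53.3, 48.1 and 53.4 CPM and then 182, 197 and 173 CPM (log2 fold change 1.95 ± 0.17 SE, adjusted p = 1.27e-05). PSMD1 of the base went from 147, 153 and 214 to 574, 594 and 584 CPM (log2 fold change 1.89 ± 0.19 SE, adjusted p = 4.17e-05). The core subunit PSMB2 went from 93.5, 70.6 and 92.2 to 238, 212 and 219 CPM. The assembly chaperone POMP went from 182, 185 and 310.3 to 807, 759.9 and 732 CPM. The 3 untreated values of PSMD12 were close together, and all copper values were higher for each gene. The member that fell was DDI2, the protease that activates NRF1, from 679, 577 and 251 CPM to 63.4, 64.5 and 68.1 CPM (log2 fold change -2.84 ± 0.35 SE, adjusted p = 0.000186); NFE2L1, which encodes NRF1, did not pass the test (log2 fold change -0.19 ± 0.17 SE, adjusted p = 0.414). In the ubiquitin list 15 of 26 tested members rose and none fell (9 held); by edgeR 2 fell at an unadjusted p under 0.05, and by DESeq2 2 fell. UBB, a polyubiquitin gene, went from 157, 144 and 515 to 878, 706 and 732 CPM (log2 fold change 1.65 ± 0.39 SE, adjusted p = 0.00736; lost with only the 6 knockout libraries, adjusted p = 0.0568). ZFAND2A, an arsenite- and heat-inducible partner of the proteasome, rose from 234, 266 and 97.04 to 1659, 1786 and 1509 CPM (log2 fold change 3.15 ± 0.40 SE, adjusted p = 0.000214). NPLOC4, an adaptor of the VCP segregase, rose from 47.8, 48.1 and 61.9 to 163, 134 and 156 CPM (log2 fold change 1.64 ± 0.19 SE, adjusted p = 9.45e-05). For UBB untreated replicate 3 was the nearest to the copper values, and for ZFAND2A the furthest.

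Antioxidant genes also rose. In the haem and NRF2 list 21 of 41 tested members rose, above the 15.2% of all tested genes, and 5 fell, below the 18.5%. Of these calls 20 and 4 held, and the median log2 fold change was 1.17. HMOX1, haem oxygenase, was already high at 1369.7, 1173 and 617 CPM and rose to 6306, 6449.8 and 6549.6 CPM (log2 fold change 2.71 ± 0.33 SE, adjusted p = 0.000152). SLC7A11, the cystine importer that feeds glutathione synthesis, rose from 47.1, 39.9 and 35.4 CPM to 396, 417 and 331 CPM (log2 fold change 3.35 ± 0.24 SE, adjusted p = 4.27e-06). TXNRD1, thioredoxin reductase, went from 92.8, 104 and 82.4 to 348, 447 and 402 CPM (log2 fold change 2.21 ± 0.19 SE, adjusted p = 1.27e-05). GCLM, the regulatory subunit of the first enzyme of glutathione synthesis, went from 219.6, 166 and 109.5 to 769, 789 and 682 CPM (log2 fold change 2.29 ± 0.29 SE, adjusted p = 0.000215). No untreated value reached a copper value in these genes. The small MAF proteins, dimer partners of NRF2, rose too. MAFG went from 9.70, 17.4 and 41.5 to 254, 221 and 229 CPM (log2 fold change 3.43 ± 0.41 SE, adjusted p = 0.000145). MAFF went from 1.39, 5.12 and 3.97 to 88.7, 88.3 and 94.4 CPM (log2 fold change 4.82 ± 0.31 SE, adjusted p = 2.22e-06). SRXN1, sulfiredoxin, rose from 14.5, 15.4 and 211 CPM to 927, 677 and 729 CPM (log2 fold change 3.40 ± 0.85 SE, adjusted p = 0.00967), and untreated replicate 3 held far more than the other two. With only the 6 knockout libraries its adjusted p was 0.0529 in edgeR. NQO1, a quinone reductase often used as an NRF2 marker, did not pass (log2 fold change 1.04 ± 0.39 SE, adjusted p = 0.0562): untreated replicate 3, at 427 CPM, lay among the copper values of 451, 408 and 387 CPM, and replicates 1 and 2 at 111 and 130.0 CPM did not. NFE2L2, which encodes NRF2, fell from 252, 156 and 172 CPM to 99.7, 107 and 106 CPM (log2 fold change -0.78 ± 0.21 SE, adjusted p = 0.0136), a call that did not hold. SOD2, the mitochondrial superoxide dismutase, rose from 35.3, 41.98 and 48.8 to 156, 147 and 139 CPM (log2 fold change 1.93 ± 0.20 SE, adjusted p = 4.75e-05).

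Stress signalling genes rose in part. In the integrated stress response list, the ATF4 programme that answers stalled translation, 12 of 36 tested members rose and 5 fell (11 and 3 held). The rises were above the 15.2% and the falls below the 18.5% of all tested genes. PPP1R15A, which restarts translation, went from 44.3, 21.5 and 21.97 CPM to 297, 337 and 299.8 CPM (log2 fold change 3.53 ± 0.32 SE, adjusted p = 1.92e-05). SESN2 rose from 90.1, 95.2 and 115 to 438, 413 and 365 CPM (log2 fold change 2.14 ± 0.18 SE, adjusted p = 1.03e-05). DDIT3 (CHOP) went from 4.85, 6.14 and 17.1 to 57.7, 72.01 and 56.5 CPM (log2 fold change 2.72 ± 0.34 SE, adjusted p = 0.000189). ASNS, asparagine synthetase, went from 32.6, 26.6 and 74.5 to 314, 274 and 264 CPM (log2 fold change 2.77 ± 0.34 SE, adjusted p = 0.00017). All 4 had separate groups. ATF4 itself did not pass the test, at 725, 686 and 672 CPM and 841, 782 and 821 CPM, and PSPH, the last enzyme of serine synthesis, fell (log2 fold change -1.61 ± 0.21 SE, adjusted p = 0.000214). In the list for folding in the endoplasmic reticulum 6 of 28 tested members rose and 4 fell, near the shares over all tested genes. HSPA5 (BiP), its main chaperone, did not pass, at 1542, 1215 and 2719.8 CPM and 2351, 2166 and 2279 CPM (log2 fold change 0.45 ± 0.25 SE, adjusted p = 0.189), and neither did XBP1. HERPUD1, of the degradation complex in that membrane, rose from 11.1, 7.17 and 41.5 to 135, 118 and 119 CPM (log2 fold change 2.67 ± 0.44 SE, adjusted p = 0.00103), while PDIA4, a disulfide isomerase, fell from 423, 369.6 and 341 to 126, 133 and 123 CPM (log2 fold change -1.46 ± 0.22 SE, adjusted p = 0.000606).

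Immediate early genes, which are normally switched on within minutes of a stimulus, were high at 24 h. In their list 23 of 30 tested members rose, against 15.2% of all tested genes, and 3 fell, against 18.5%. Of these calls 19 of the rises and none of the falls held, and the median log2 fold change was 2.67. FOS, FOSB, JUN and ATF3 encode subunits of AP-1. FOS was at 0.693, 1.02 and 0 CPM and then 34.2, 41.9 and 33.04 CPM, a count ratio of 103-fold (95% counting interval 28.3 to 856). FOSB went from 0.693, 0 and 0.305 CPM to 43.8, 59.9 and 58.9 CPM, a ratio of 153-fold (95% counting interval 42.1 to 1268). JUN, already expressed, rose from 87.99, 82.9 and 89.7 to 409, 369 and 340.0 CPM (log2 fold change 2.22 ± 0.18 SE, adjusted p = 8.11e-06). ATF3 went from 0.693, 1.02 and 3.66 to 32.1, 25.1 and 37.4 CPM (log2 fold change 3.91 ± 0.37 SE, adjusted p = 2.61e-05). For the 4 genes the groups were apart, with FOS and FOSB at or under the floor without copper. EGR1, a zinc finger factor of the same wave, rose from 5.54, 4.10 and 4.88 CPM to 45.2, 54.01 and 50.96 CPM (log2 fold change 3.47 ± 0.22 SE, adjusted p = 1.94e-06). ARC, known from neurons as an activity-regulated gene, had no untreated count and 81.9, 74.1 and 71.3 CPM after copper, at least 144-fold higher against the floor. VGF, a secreted neuropeptide precursor, had 2 untreated counts and 71.9, 54.01 and 63.7 CPM after copper, and RRAD, a small GTPase, went from 2.08, 1.02 and 3.05 CPM to 446, 430.0 and 419 CPM (log2 fold change 7.63 ± 0.42 SE, adjusted p = 1.27e-06). GADD45G, of the growth arrest family, had 1 untreated count against 126, 113 and 105 CPM, a ratio of 656-fold (95% counting interval 117 to 25924). GADD45B went from 6.24, 2.05 and 8.85 to 377, 325 and 278 CPM (log2 fold change 5.81 ± 0.37 SE, adjusted p = 2.22e-06). GADD45A went from 90.1, 49.1 and 105 to 253, 283 and 261 CPM (log2 fold change 1.82 ± 0.23 SE, adjusted p = 0.000176).

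Genes of secreted signals rose in part. In the NF-kappaB and cytokine list 7 of 17 tested members rose and 1 fell (5 and 0 held), where 15.2% of all tested genes rose and 18.5% fell. IL11, a cytokine of the interleukin 6 family, was at 0.693, 0 and 2.44 CPM and rose to 202, 156 and 184 CPM (log2 fold change 7.04 ± 0.46 SE, adjusted p = 2.22e-06). CXCL8, the neutrophil attractant interleukin 8, had 2 untreated counts and 20.7, 25.96 and 20.3 CPM after copper, a ratio of 63.2-fold (95% counting interval 17.2 to 526). NFKBIA, the NF-kappaB inhibitor, did not pass: 46.4, 67.6 and 318 CPM untreated against 394, 361 and 332 CPM, with replicate 3 near the copper values. SNAI1, a repressor of epithelial genes, had 3 untreated counts and 70.9, 46.9 and 52.95 CPM after copper, a ratio of 109-fold (95% counting interval 37.2 to 532). Other genes among the 20 largest rises were listed at 0 or 1 count without copper. Among them were GFPT2, of the hexosamine pathway, at 13.2, 20.5 and 23.9 CPM with copper, PLK5 at 12.5, 11.7 and 13.9 CPM, LSMEM1 at 12.5, 12.98 and 9.95 CPM and TENT5C, a poly(A) polymerase, at 17.8, 7.12 and 8.76 CPM.

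In the list of GADD45 genes and p53 targets 4 of 23 tested members rose, among them the 3 GADD45 genes above, and 7 fell. The rises were near the 15.2% and the falls above the 18.5% of all tested genes. CDKN1A (p21), the arrest gene most used as a p53 readout, did not pass the test, at 95.6, 55.3 and 205 CPM and 157, 158 and 157 CPM (log2 fold change 0.53 ± 0.33 SE, adjusted p = 0.219), and MDM2 did not either (log2 fold change 0.01 ± 0.28 SE, adjusted p = 0.99). SESN1 fell from 105, 74.7 and 48.2 to 13.2, 15.1 and 15.5 CPM (log2 fold change -2.27 ± 0.31 SE, adjusted p = 0.000298). ZMAT3 went from 197, 173 and 119 to 40.6, 45.6 and 52.2 CPM (log2 fold change -1.71 ± 0.24 SE, adjusted p = 0.000339). Of 28 tested genes of the BCL2 family and apoptosis 9 rose, above the 15.2% of all tested genes, and 4 fell, below the 18.5%. PMAIP1 (NOXA), a killer protein that binds MCL1, went from 2.08, 0 and 6.71 CPM to 35.3, 50.7 and 33.04 CPM (log2 fold change 3.49 ± 0.54 SE, adjusted p = 0.000643). The survival protein MCL1 itself went from 33.3, 62.5 and 103 to 196, 177 and 184 CPM (log2 fold change 1.60 ± 0.35 SE, adjusted p = 0.0048). BCL2L11 (BIM) fell (log2 fold change -1.47 ± 0.36 SE, adjusted p = 0.00884). BAX fell, from 900.0, 770.0 and 217 CPM to 109.7, 116 and 147 CPM (log2 fold change -2.25 ± 0.45 SE, adjusted p = 0.00282). The mean of its copper libraries differed by -0.62 on the log2 scale from replicate 3 and by -2.78 and -2.58 from replicates 1 and 2, and against replicate 3 alone the edgeR call was lost (adjusted p = 0.131).

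Autophagy and lysosome genes changed unevenly, where 15.2% of all tested genes rose and 18.5% fell. Of the 4 tested genes of the LC3 and GABARAP family, which coat the growing autophagosome, 3 rose and 1 fell, and all 4 calls held without each knockout library. GABARAPL1 went from 13.9, 19.5 and 40.9 CPM to 239, 262 and 238 CPM (log2 fold change 3.39 ± 0.30 SE, adjusted p = 1.49e-05). MAP1LC3B went from 21.5, 31.7 and 68.05 to 373, 346 and 311 CPM (log2 fold change 3.19 ± 0.39 SE, adjusted p = 0.000169), whereas GABARAP fell from 288, 204 and 164 to 83.3, 96.7 and 109 CPM (log2 fold change -1.08 ± 0.24 SE, adjusted p = 0.00555). Against untreated replicate 3 alone edgeR lost the calls of GABARAP (log2 fold change -0.59, adjusted p = 0.0671) and GABARAPL2 (0.73, adjusted p = 0.0516). In the list of autophagy receptors and regulators 6 of 18 tested members rose and 2 fell. SQSTM1 (p62), a receptor that gathers ubiquitinated protein, was at 808, 744 and 299 CPM and then 1370.2, 1624 and 1592 CPM (log2 fold change 1.40 ± 0.35 SE, adjusted p = 0.0098). Its call was lost with only the 6 knockout libraries (adjusted p = 0.0617). TAX1BP1, another receptor, rose from 222, 204 and 241 to 569.5, 646 and 635 CPM (log2 fold change 1.59 ± 0.17 SE, adjusted p = 5.68e-05). Of 45 tested genes of the TFEB family and lysosome 18 rose and 4 fell (14 and 3 held). The proton pump subunits ATP6V1D and ATP6V0A1 rose (log2 fold change 2.18 ± 0.30 SE, adjusted p = 0.000339 for the first, 1.60 ± 0.22 (SE) on the log2 scale for the second). TFEB, the lysosomal master regulator, fell from 18.7, 11.3 and 12.8 CPM to 0.712, 2.51 and 3.58 CPM (log2 fold change -2.54 ± 0.51 SE, adjusted p = 0.00311). The protease CTSH fell from 445, 343 and 187 to 68.7, 61.1 and 73.7 CPM (log2 fold change -2.16 ± 0.30 SE, adjusted p = 0.000373). ULK1, the kinase that starts autophagy, was called higher (log2 fold change 1.76 ± 0.59 SE, adjusted p = 0.0368) but did not hold: untreated replicates 1 and 2 were at 2.08 and 2.05 CPM and replicate 3 at 27.5 CPM, against 39.2, 35.2 and 41.01 CPM with copper.

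Genes that move copper itself were split, 3 of 17 tested members rising and 3 falling, shares near those over all tested genes (15.2% and 18.5%), with a median log2 fold change of 0.11. SLC31A1 (CTR1), the importer, did not pass the test, at 88.7, 75.8 and 132 CPM and 95.5, 109 and 93.6 CPM (log2 fold change 0.13 ± 0.20 SE, adjusted p = 0.644). CP, ceruloplasmin, the copper carrier of plasma, fell from 105, 86.01 and 43.3 CPM to 8.55, 10.05 and 12.3 CPM (log2 fold change -2.80 ± 0.32 SE, adjusted p = 0.00011). SOD1, the copper-zinc superoxide dismutase, rose from 495, 409.6 and 521 to 791, 776 and 786 CPM (log2 fold change 0.84 ± 0.18 SE, adjusted p = 0.00401), and CCS, the chaperone that loads it, fell from 67.2, 30.7 and 33.9 to 12.5, 16.7 and 16.3 CPM (log2 fold change -1.42 ± 0.34 SE, adjusted p = 0.00829). In the list of zinc transport and MTF1 5 of 20 tested members rose, 6 fell and 9 were not called (3 rises and 3 falls held). Both shares were above those over all tested genes. MTF1, the metal sensor, rose from 8.31, 17.4 and 14.6 to 28.9, 36.8 and 27.1 CPM (log2 fold change 1.33 ± 0.31 SE, adjusted p = 0.00704). SLC30A1 (ZNT1), the zinc exporter and an MTF1 target, was called higher without holding, at 5.54, 9.22 and 26.5 CPM and 43.5, 37.7 and 42.2 CPM (log2 fold change 1.59 ± 0.45 SE, adjusted p = 0.0168). The manganese exporter SLC30A10 fell from 13.9, 28.7 and 14.3 to 2.14, 0.419 and 1.59 CPM (log2 fold change -3.53 ± 0.51 SE, adjusted p = 0.000465) and the importer SLC39A14 from 131, 137 and 167 to 48.8, 65.7 and 53.7 CPM (log2 fold change -1.25 ± 0.22 SE, adjusted p = 0.00138).

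The iron handling list included 2 rises and 6 falls among 15 tested (2 and 4 held). The rises were near the 15.2% and the falls above the 18.5% of all tested genes. LEAP2 was counted among the falls, though it is known for other functions. The ferritin chains rose, FTH1 from 842, 884 and 908 CPM to 1721, 1748 and 1519 CPM (log2 fold change 1.04 ± 0.20 SE, adjusted p = 0.00219). FTL went from 657, 525 and 2296 to 3674, 3412 and 3437 CPM (log2 fold change 1.75 ± 0.43 SE, adjusted p = 0.00862), a call lost with only the 6 knockout libraries (adjusted p = 0.0657). TF, transferrin, fell from 1772, 1622 and 1417 to 449, 488 and 492 CPM (log2 fold change -1.64 ± 0.20 SE, adjusted p = 0.000159). TFR2, the liver's sensor of it, went from 50.6, 27.6 and 30.2 to 8.55, 4.61 and 6.77 CPM (log2 fold change -2.31 ± 0.32 SE, adjusted p = 0.000351). The iron importer SLC11A2 went from 113, 122 and 84.5 to 26.4, 32.7 and 28.3 CPM (log2 fold change -1.76 ± 0.21 SE, adjusted p = 0.000135). LEAP2, a liver-secreted antagonist of the ghrelin receptor that was first described as an antimicrobial peptide, fell from 24.2, 24.6 and 24.1 CPM to 0.712, 0.837 and 0.796 CPM (log2 fold change -4.76 ± 0.37 SE, adjusted p = 8.01e-06), and its 3 untreated values were nearly equal. HAMP, hepcidin, was called lower (log2 fold change -2.34 ± 0.63 SE, adjusted p = 0.0141) without holding: its untreated values were 6.24, 7.17 and 34.8 CPM and its copper values 3.21, 3.77 and 2.39 CPM.

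Genes of liver products fell. In bulk RNA, fewer cells of a kind and less RNA in each cannot be told apart. None of 22 tested plasma carriers rose and 15 fell (12 held), none of 15 apolipoprotein genes rose and 9 fell (7 held), and none of 25 coagulation and complement genes rose and 15 fell (12 held), where 18.5% of all tested genes fell. Their median log2 fold changes were -1.25, -1.13 and -1.25, and no member of the 3 lists rose at an unadjusted p under 0.05 in edgeR or by DESeq2. Of the 12 HepG2 markers, which overlap these lists, 7 fell and 6 held. ALB fell (log2 fold change -1.16 ± 0.19 SE, adjusted p = 0.00105) and SERPINA1, alpha-1 antitrypsin, went from 817, 838 and 384 CPM to 189, 173 and 176 CPM (log2 fold change -1.82 ± 0.30 SE, adjusted p = 0.000909). The fibrinogen chains fell together: FGA from 862, 756 and 1213 to 123, 130.2 and 139.7 CPM (log2 fold change -2.72 ± 0.21 SE, adjusted p = 7.09e-06). FGG went from 300.0, 452 and 249 to 35.97, 40.6 and 38.2 CPM (log2 fold change -3.02 ± 0.26 SE, adjusted p = 1.27e-05). FGB went from 239.7, 252 and 301 to 90.8, 86.7 and 94.4 CPM (log2 fold change -1.42 ± 0.17 SE, adjusted p = 0.000118). F7, coagulation factor VII, fell from 41.6, 40.96 and 29.6 to 3.92, 3.35 and 4.38 CPM (log2 fold change -3.12 ± 0.28 SE, adjusted p = 1.66e-05) and SERPIND1, heparin cofactor II, from 288, 268 and 198 to 37.8, 38.9 and 41.8 CPM (log2 fold change -2.56 ± 0.22 SE, adjusted p = 1.27e-05). The untreated libraries lay well above the copper ones in each of these genes. HP, haptoglobin, was at 26.3, 21.5 and 11.3 CPM and fell to 1.07, 0.419 and 0 CPM (log2 fold change -4.98 ± 0.77 SE, adjusted p = 0.000691). AFP and TTR did not pass: TTR was at 211, 228 and 592 CPM untreated and 191, 170.4 and 171 CPM with copper, so that only replicate 3 stood far above.

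**Figure D3:**
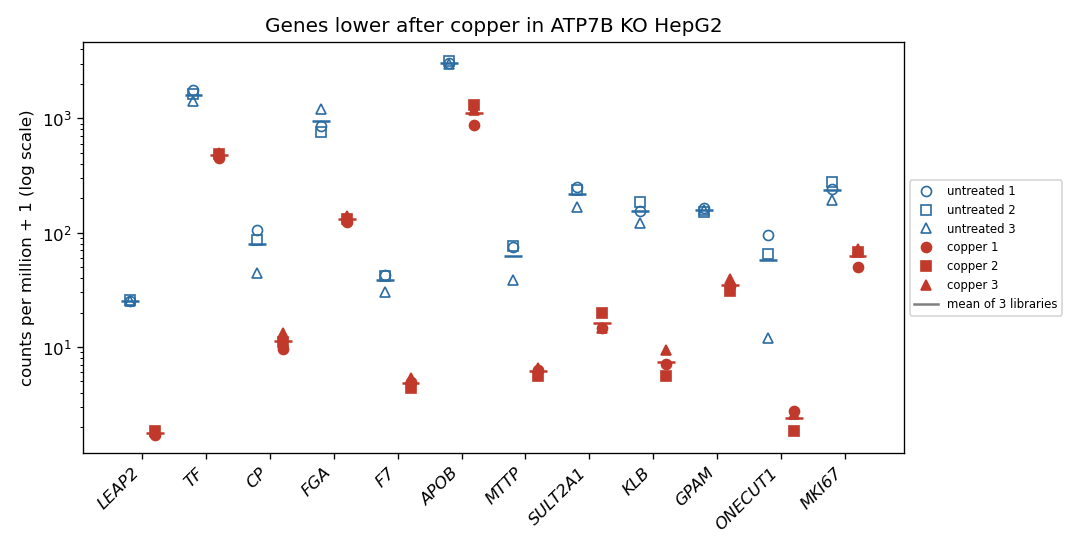
CPM plus 1 on a log scale for 12 genes that fell, in each untreated (open blue) and copper-treated (filled red) ATP7B KO library, with the mean of 3 as a line. The copper points lie below all untreated points in each gene; LEAP2, TF and APOB have similar untreated libraries, whereas untreated replicate 3 is the lowest for KLB and ONECUT1.

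Lipoprotein genes fell at several steps. APOB, the structural protein of VLDL, went from 3059.5, 3164 and 2959 CPM to 879.7, 1299 and 1178 CPM (log2 fold change -1.34 ± 0.22 SE, adjusted p = 0.000904). MTTP, which loads it with lipid, went from 73.4, 74.7 and 37.2 to 5.34, 4.61 and 5.57 CPM (log2 fold change -3.44 ± 0.33 SE, adjusted p = 2.53e-05). APOA1 of HDL fell (log2 fold change -1.20 ± 0.21 SE, adjusted p = 0.00121), as did APOA5 (log2 fold change -2.43 ± 0.29 SE, adjusted p = 0.00013) and APOC3 (log2 fold change -2.27 ± 0.34 SE, adjusted p = 0.000606), which set plasma triglyceride. APOA2 did not pass, at 1672, 1462 and 2523 CPM and 1399, 1292 and 1285 CPM. Of 17 tested hepatocyte transcription factors none rose, also at an unadjusted p under 0.05 in edgeR and by DESeq2, and 9 fell (7 held). RXRA, the shared partner of nuclear receptors, went from 147, 173 and 122 to 32.4, 31.8 and 37.8 CPM (log2 fold change -2.002 ± 0.22 SE, adjusted p = 8.32e-05). The bile acid receptor NR1H4 (FXR) went from 30.5, 16.4 and 18.6 to 2.14, 3.35 and 1.99 CPM (log2 fold change -3.000 ± 0.46 SE, adjusted p = 0.000642). FOXA1 fell from 60.97, 81.9 and 59.2 to 19.2, 14.2 and 20.7 CPM (log2 fold change -1.77 ± 0.26 SE, adjusted p = 0.000452). PROX1 went from 204, 196 and 137 to 40.2, 49.4 and 50.6 CPM (log2 fold change -1.83 ± 0.22 SE, adjusted p = 0.00013). ONECUT1 (HNF6) went from 94.9, 64.5 and 10.98 to 1.78, 0.837 and 1.59 CPM (log2 fold change -5.15 ± 0.80 SE, adjusted p = 0.000691). HNF4A, the central factor of the hepatocyte, did not pass, at 60.97, 55.3 and 149.5 CPM untreated and 68.7, 54.01 and 60.9 CPM with copper: replicates 1 and 2 lay among the copper values and replicate 3 above them. Of 13 tested genes of drug and bile acid handling 4 fell and 1 rose, against 18.5% and 15.2% of all tested genes, with a median log2 fold change of -0.23. The falls included the sulfotransferase SULT2A1, from 251, 237 and 165 to 13.5, 18.8 and 13.5 CPM (log2 fold change -3.72 ± 0.28 SE, adjusted p = 7.71e-06).

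Some genes of lipid synthesis and of lipid breakdown fell, and in each of the 3 lists more than 18.5% of members fell, the share over all tested genes, while most were not called or rose. In the cholesterol synthesis list 9 of 24 tested members fell and 1 rose (7 and 0 held), with SQLE, squalene epoxidase, going from 145, 145 and 156 CPM to 51.6, 45.2 and 57.3 CPM (log2 fold change -1.42 ± 0.16 SE, adjusted p = 9.28e-05). HMGCS1, which makes HMG-CoA, did not pass, at 52.7, 69.6 and 337 CPM and 277, 206 and 208 CPM. Of 19 tested genes of fatty acid and triglyceride synthesis 7 fell and 1 rose (6 and 1 held). GPAM, the first enzyme of triglyceride synthesis, fell from 165, 149 and 157 to 33.1, 29.7 and 38.2 CPM (log2 fold change -2.10 ± 0.19 SE, adjusted p = 1.92e-05). FASN, fatty acid synthase, went from 258, 331 and 503 to 162, 159.5 and 170.4 CPM (log2 fold change -1.02 ± 0.22 SE, adjusted p = 0.00416). The lipase PNPLA3 went from 163, 182 and 67.4 to 6.77, 6.70 and 7.56 CPM (log2 fold change -4.18 ± 0.46 SE, adjusted p = 7.97e-05). The member that rose was the elongase ELOVL5 (log2 fold change 1.93 ± 0.28 SE, adjusted p = 0.00047). Of 25 tested genes of fatty acid oxidation and PPARA targets 11 fell and 1 rose (10 and 0 held). PPARA, the fasting receptor, went from 69.97, 53.2 and 37.5 to 13.5, 13.4 and 14.7 CPM (log2 fold change -1.83 ± 0.27 SE, adjusted p = 0.000572). The peroxisomal enzyme EHHADH went from 37.4, 59.4 and 34.2 to 7.12, 4.61 and 6.37 CPM (log2 fold change -2.70 ± 0.33 SE, adjusted p = 0.000159). CPT1A, which admits fatty acids to mitochondria, did not pass, at 62.4, 58.4 and 162 CPM and 106, 88.8 and 89.6 CPM.

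Several of the 20 largest falls came from no list. KLB, the liver co-receptor of FGF19 and FGF21, went from 154, 183 and 119.9 CPM to 6.05, 4.61 and 8.36 CPM (log2 fold change -4.47 ± 0.27 SE, adjusted p = 1.81e-06). B4GAT1, a glycosyltransferase, was the most counted of them, at 3558, 4312 and 1002 CPM and then 111, 126 and 129 CPM (log2 fold change -4.51 ± 0.52 SE, adjusted p = 0.000103). SLC13A5, the citrate importer of hepatocytes, fell from 302, 408 and 91.8 to 9.62, 10.5 and 12.3 CPM (log2 fold change -4.53 ± 0.53 SE, adjusted p = 0.000119). TNFSF10 (TRAIL), a death ligand, went from 99.8, 89.1 and 37.8 to 1.78, 2.09 and 3.98 CPM (log2 fold change -4.72 ± 0.47 SE, adjusted p = 3.76e-05). The homeobox gene MIXL1 went from 334, 268 and 115 to 6.05, 6.28 and 10.4 CPM (log2 fold change -4.88 ± 0.45 SE, adjusted p = 2.20e-05). In all of these, untreated replicate 3 was the lowest of the untreated libraries, by least in KLB. It lay above every copper library, which the rule for choosing these genes required. The tight junction gene CLDN19 fell from 98.4, 84.98 and 45.5 to 3.92, 1.26 and 4.38 CPM and the ion channel TRPV4 from 71.4, 81.9 and 19.5 to 3.21, 2.09 and 2.39 CPM. CLDN14 fell to 2 counts in all, from 23.6, 11.3 and 7.32 CPM, a ratio of 46.7-fold (95% counting interval 12.4 to 393) lower.

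Some mitotic genes fell and replication genes were split. Of 35 tested mitotic genes 11 fell, where 18.5% of all tested genes did, 24 were not called and none rose (7 falls held). For rises edgeR gave 2 at an unadjusted p under 0.05 and DESeq2 none, and the median log2 fold change was -0.45. MKI67, the proliferation antigen, went from 239, 275 and 193 CPM to 48.8, 66.6 and 70.9 CPM (log2 fold change -1.82 ± 0.21 SE, adjusted p = 0.000124). CENPF went from 332, 349 and 309 to 70.5, 116 and 104 CPM (log2 fold change -1.66 ± 0.22 SE, adjusted p = 0.000295). PLK1 went from 97.7, 130.0 and 171 to 69.1, 48.6 and 46.2 CPM (log2 fold change -1.15 ± 0.25 SE, adjusted p = 0.00467). Against untreated replicates 1 and 2 alone the list's median was 0.06, and against replicate 3 alone -0.73. Of 40 tested replication genes 5 rose and 5 fell, both below the shares over all tested genes, among them CDC6, up from 57.5, 43 and 72.02 to 94.03, 105 and 114 CPM (log2 fold change 0.97 ± 0.19 SE, adjusted p = 0.0026). MCM3 fell from 349.9, 369 and 377 to 168, 165 and 168 CPM (log2 fold change -1.01 ± 0.18 SE, adjusted p = 0.00138). The histone list had 11 tested members, of which 5 fell and 1 rose, against 18.5% and 15.2% of all tested genes. H4C3, the most counted, went from 5709, 4872 and 1778 to 655, 937 and 856 CPM (log2 fold change -2.25 ± 0.40 SE, adjusted p = 0.00161). Replication-dependent histone mRNAs lack a poly(A) tail and share sequence, so their counts in a poly(A)-primed method are uncertain.

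**Figure D4:**
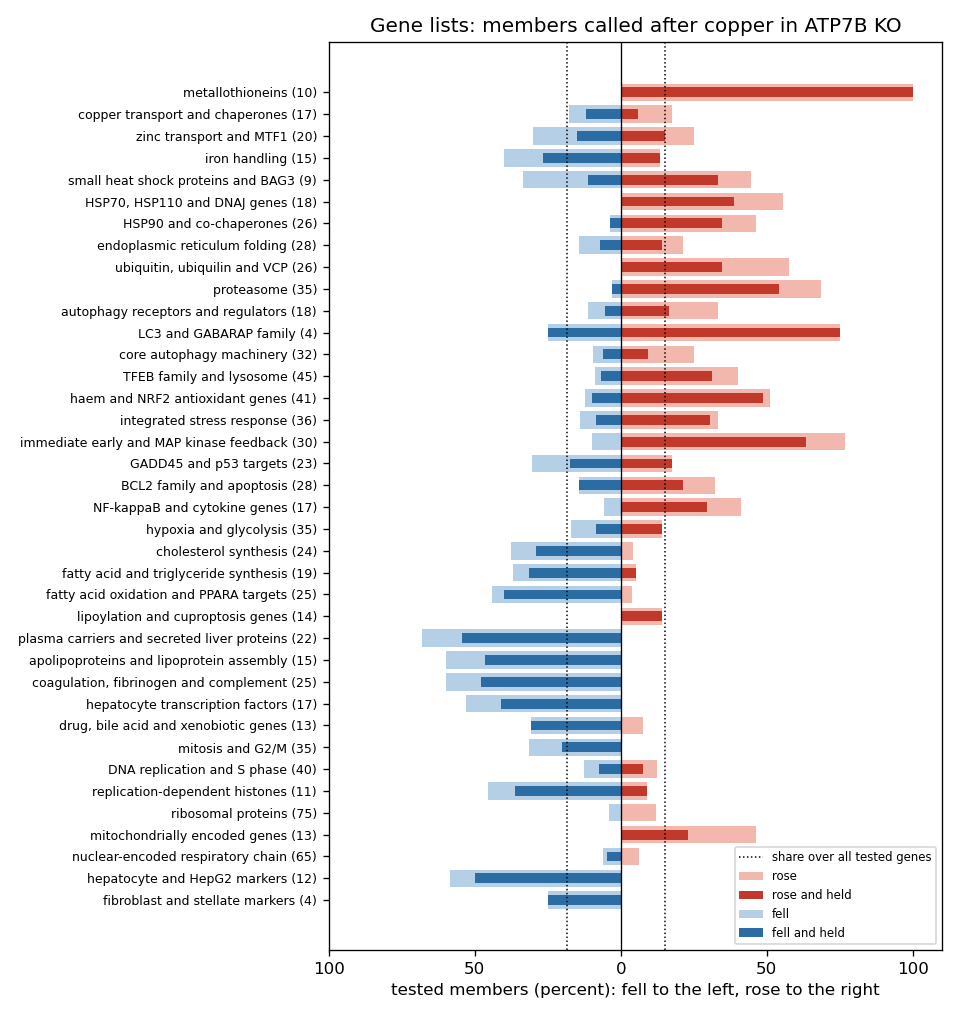
For each gene list, with its number of tested members in brackets, bars give the percent of members that rose (right) or fell (left), in dark where the call held; dotted lines are the shares over all tested genes, 15.2% and 18.5%. Metallothioneins reach 100% on the right, and the lists of liver products lie wholly on the left.

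Mitochondrial proteins are encoded in 2 genomes. Of the 13 genes of mitochondrial DNA 6 rose and none fell (3 held; 1 fell at an unadjusted p under 0.05 in edgeR and 1 by DESeq2), MT-CYB going from 306, 441 and 1330.4 CPM to 2354, 2097 and 2267 CPM (log2 fold change 1.84 ± 0.44 SE, adjusted p = 0.00742; lost with only the 6 knockout libraries, adjusted p = 0.0513). MT-ND1 went from 544, 574 and 734 to 1362, 1158 and 1123 CPM (log2 fold change 1.10 ± 0.19 SE, adjusted p = 0.0012). Together the 13 genes took 2.53%, 4.65% and 3.03% of counts in the untreated libraries and 4.27%, 4.21% and 4.29% after copper. In this share untreated replicate 2 lay above every copper library. Of 65 tested nuclear genes of the respiratory chain 4 rose and 4 fell (0 and 3 held), both below the shares over all tested genes (15.2% and 18.5%), and COX4I1, a subunit of cytochrome c oxidase, which uses copper, did not pass, at 427, 470.0 and 554 CPM and 502, 478 and 465 CPM (log2 fold change 0.11 ± 0.17 SE, adjusted p = 0.632). Of 14 tested genes of protein lipoylation and cuproptosis, the form of copper-driven death that works through lipoylated mitochondrial enzymes, 2 rose, near the 15.2% of all tested genes that did, and none fell (3 at an unadjusted p under 0.05 in edgeR, none by DESeq2). MTF1, also a member of the zinc list, was among the rises. FDX1, the reductase that the process needs, did not pass, at 0.693, 6.14 and 22.6 CPM and 27.1, 17.6 and 14.3 CPM (log2 fold change 0.96 ± 0.62 SE, adjusted p = 0.24).

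Some genes read differently against the single untreated libraries. Ribosomal protein genes held 5.6%, 4.74% and 10% of counts in untreated replicates 1, 2 and 3 and 9.08% to 9.96% after copper. Their median log2 fold change was 1.62 against replicates 1 and 2 and 0.12 against replicate 3. Although 9 of 75 tested members rose and 3 fell, both below the shares over all tested genes (15.2% and 18.5%), no call held. In edgeR 36 rose and 5 fell at an unadjusted p under 0.05, and by DESeq2 25 and 4 were called. RPLP0 was at 157, 140.3 and 1964 CPM untreated and 2062, 1724 and 1701 CPM with copper. GDF15, a stress-induced hormone, was at 94.9, 60.4 and 796 CPM and 1134, 1005 and 1068 CPM (log2 fold change 1.92 ± 0.71 SE, adjusted p = 0.0539). In both genes replicate 3 was near the copper libraries and replicates 1 and 2 far below. CEBPA, a hepatocyte factor, was at 15.2, 24.6 and 183 CPM untreated and 39.5, 31.4 and 35.4 CPM with copper (log2 fold change -0.95 ± 0.66 SE, adjusted p = 0.278), and FABP1, the liver fatty acid carrier, at 22.2, 14.3 and 182 and 18.9, 14.2 and 15.9 CPM, so that replicate 3 alone was far above. NDUFS6, a complex I subunit, was at 1774, 1613 and 457 CPM and 391, 355 and 369 CPM, and MCM5 of the replicative helicase at 665, 574 and 174 and 101, 103 and 113 CPM. Both were called lower and held, with replicate 3 much nearer to the copper values than replicates 1 and 2. Against replicate 3 alone both calls were lost in edgeR, at log2 fold changes of -0.12 (adjusted p = 0.803) for NDUFS6 and -0.55 (adjusted p = 0.23) for MCM5. The NDUFS6 call was also lost with only the 6 knockout libraries (adjusted p = 0.0581) and without the 3 libraries that stand apart (adjusted p = 0.415). Over all tested genes 71 were at least 2-fold above replicates 1 and 2 and 2-fold below replicate 3, and 17 the reverse. In edgeR 1776 genes were called in the same direction against replicates 1 and 2 and against replicate 3 alone, and 150 in opposite directions. RAB17, chosen as an example after its values were seen, was at 8.31, 7.17 and 109 CPM untreated and 31.7, 30.6 and 27.1 CPM with copper. Among the untreated libraries replicate 3 also had the most counts, and the part of depth in these values was not tested.

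**Figure D5:**
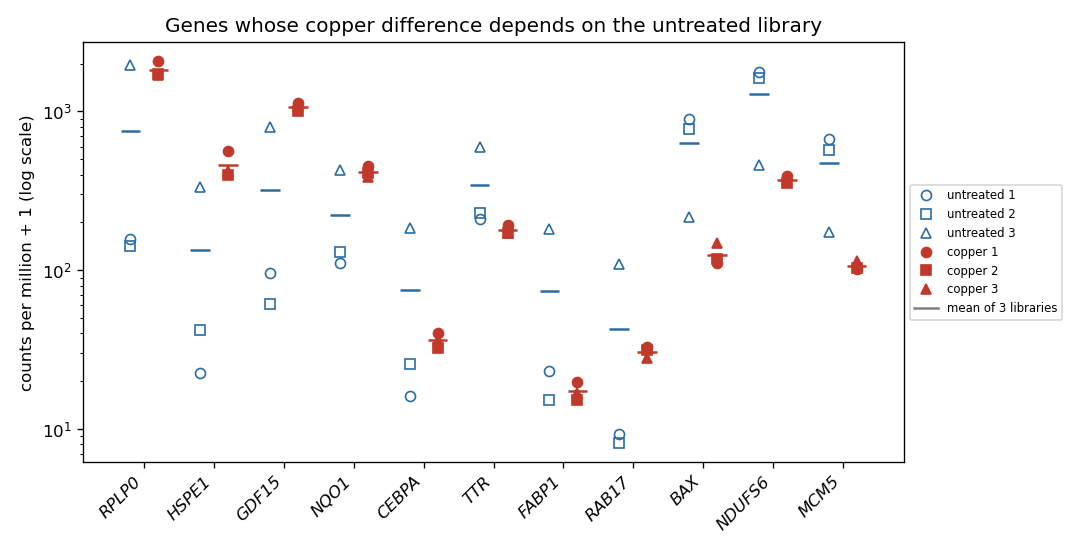
CPM plus 1 on a log scale for 11 genes, in each untreated (open blue) and copper-treated (filled red) ATP7B KO library, with the mean of 3 as a line. For RPLP0, HSPE1 and NQO1 untreated replicate 3 sits near the copper points and replicates 1 and 2 below; for TTR and FABP1 replicates 1 and 2 sit near the copper points and replicate 3 above.

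Set against wild type HepG2 also labelled as treated with Cu for 24 h, the copper effect differed at an adjusted p under 0.05 in 545 genes (4.93%). It was more positive in the knockout for 139 and more negative for 406. Whether the 2 lines were given the same dose is not stated in the labels. This count was not stable: it was 13 to 5888 when 1 knockout library was left out. Through every omission of a knockout library 13 genes held. Wild type libraries were not left out singly in turn, so these 13 were not checked against each of them. Wild type copper replicate 1 correlated at 0.93 and 0.90 with replicates 2 and 3 of its group, which correlated at 0.97 with each other. Of the genes called in the knockout, 853 were called in the same direction in wild type cells (22.9% of the knockout calls and 51.8% of the 1648 wild type ones) and 33 in the opposite one. Among the 13, CCN2, a YAP target of the matrix, went from 45.7, 78.8 and 113 CPM to 301, 254 and 260.0 CPM in the knockout (log2 fold change 1.90 ± 0.31 SE, adjusted p = 0.001) and had a log2 fold change of -2.17 in wild type, a difference of 4.06 ± 0.44 (SE), adjusted p = 0.00262. GADD45B rose more in the knockout, by 3.62 ± 0.45 (SE), adjusted p = 0.00373 on the log2 scale, and so did MAFF, by 2.89 ± 0.39 (SE), adjusted p = 0.00658. PFKFB3, which drives glycolysis, rose from 0.693, 1.02 and 2.44 to 32.8, 30.6 and 32.2 CPM in the knockout and its difference from wild type was 3.39 ± 0.45 (SE), adjusted p = 0.00571. EDN1, endothelin 1, had 2 counts in the untreated knockout and 10.3, 7.95 and 13.5 CPM after copper, with a difference of 7.26 ± 0.65 (SE), adjusted p = 0.000834 on counts this low. In wild type EDN1 fell, from a mean of 15.6 ± 0.728 to 2.92 ± 0.488 CPM (SD, n = 3). The copper effect on KLB and F7 was more negative in the knockout, with differences of -3.18 ± 0.35 (SE), adjusted p = 0.00262, and -2.91 ± 0.36 (SE), adjusted p = 0.00373. KLB had a log2 fold change of -1.28 in wild type. PDE4C, a cAMP phosphodiesterase, fell from 70.7, 65.5 and 50.04 to 4.27, 2.93 and 7.96 CPM in the knockout against a log2 fold change of 0.32 in wild type, a difference of -3.81 ± 0.47 (SE), adjusted p = 0.00373. Of 10 metallothioneins none had a called difference, by edgeR (0 also at an unadjusted p under 0.05) or by DESeq2, and of 35 proteasome genes 1 had by edgeR and 7 by DESeq2. The metallothionein estimates were loose, at 2.10 ± 1.09 (SE) for MT2A, 0.88 ± 0.87 for MT1G and -0.84 ± 0.43 for MT1X. That family took 0.777%, 2.42% and 3.01% of counts in the wild type copper libraries. The lack of calls therefore does not show equal effects in the lines.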

How the data were processed

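The deposited files hold raw read counts per gene for each of 12 libraries (47634 Ensembl gene IDs, of which 33934 were paired with a symbol, holding 98.9% of the counts). Per the submitters' processing notes, STAR 2.3.0 and HTSeq were used with the build hg19. Counting settings, not given in the sources used here, could move reads between overlapping genes. The counts were tested with edgeR 4.0.16 (quasi-likelihood test, robust, trimmed-mean scaling, filterByExpr, R 4.3.3) on all 12 libraries with 4 group means, and p-values were adjusted by Benjamini-Hochberg over 11051 genes, called under 0.05, two-sided. Standard errors (SE) were taken from the F statistic. CPM are counts per 1000000 of the library total. A ratio of few counts has an exact 95% interval, which covers counting error only. Depth in the 6 knockout libraries ran from 976658 to 3277087 counts.

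The labels call the replicates biological without naming separate cultures, so p-values measure the spread between these libraries. Genes were named by rule: the 20 largest changes in each direction among calls that held, with a mean of at least 10 CPM and groups apart, up to 6 members with the smallest p and preset key members of each list, and the 10 largest differences between lines in each direction; not all are described. For the 20 largest changes in each direction, groups apart was a condition of the choice and not a result. The lists and the choices were made with earlier results of these data known, and no list was tested. The fit was checked on simulated counts. Alternatives were other scalings, no filter, DESeq2 1.42.0, limma voom 3.58.1, the knockout libraries alone, a replicate block, each knockout library left out, untreated replicate 3 alone as control, and, chosen after seeing the data, the omission of 3 libraries that stand apart (untreated knockout replicates 1 and 2 and wild type copper replicate 1). Promoters came from RefSeq (GRCh38.p14), with 8580 of 10723 tested symbols matched. Some members of the lists are not reported here by name.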

Additional observations from a re-analysis of the deposited data

Results flagged for a closer look

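For 35 genes named above the copper effect in ATP7B KO differed from that in wild type at an adjusted p under 0.05 (edgeR, interaction of line and copper, 3 libraries a group). Numbers in brackets are the difference on the log2 scale, knockout minus wild type. More positive in the knockout, and held without each knockout library, were EDN1 (7.26), CCN2 (4.06), GADD45B (3.62), PFKFB3 (3.39) and MAFF (2.89). More positive without holding were SNAI1 (4.61), IL11 (3.13), MAFG (2.95), HERPUD1 (2.27), DDIT3 (1.91), DNAJB1 (1.88), BAG3 (1.81), ELOVL5 (1.57) and SOD2 (1.10). More negative in the knockout, and held, were PDE4C (-3.81), KLB (-3.18) and F7 (-2.91). More negative without holding were ONECUT1 (-4.07), SLC13A5 (-3.40), B4GAT1 (-3.26), TRPV4 (-3.21), PNPLA3 (-3.10), CLDN19 (-3.01), MCM5 (-2.74), DDI2 (-2.28), SESN1 (-1.66), PSPH (-1.61), FOXA1 (-1.57), FGG (-1.53), RXRA (-1.46), ZMAT3 (-1.44), EGR1 (-1.41), PROX1 (-1.41), GPAM (-1.21) and FGA (-1.19).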

How the results depend on the processing

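Counts of called genes in the knockout (3721, of which 1675 rose and 2046 fell) stayed within 1.5 times with other scalings, no filter, DESeq2, limma voom and untreated replicate 3 alone as control (2768, where that lone library is assumed to vary like the other groups). They were 1853, 774 and 1079 with only the 6 knockout libraries. Leaving out 1 knockout library gave 2373 to 6635 called genes, 1073 to 3412 rises and 1300 to 3223 falls, the lowest without copper replicate 1 and the highest without untreated replicate 3 in each case; the cause was not tested. The 545 genes whose effect differed between lines became 951 with library totals only, 2366 with no filter, 1841 with DESeq2, 139 with limma voom, 101 against untreated replicate 3 alone, 1049 without the 3 libraries that stand apart and 13 to 5888 on leaving out 1 knockout library; each of the 6 omissions moved it by more than 1.5 times, to 29, 71 and 5888 without untreated replicates 1, 2 and 3 and 13, 19 and 17 without copper replicates 1, 2 and 3. With a replicate block edgeR gave 0 such genes (3293 at an unadjusted p under 0.05) and 2900 genes called in the knockout, 2751 of them shared with the 3721. The labels do not say whether equal replicate numbers pair the samples. Same-numbered deviations from the group means correlated at -0.159, 0.0803 and -0.119, and not every library correlated best with its own number. With 3 libraries a group, and untreated replicates 1 and 2 apart from replicate 3, these values cannot decide whether the samples are paired. Of the genes named, 4 reversed: on leaving out 1 knockout library CEBPA ran from -1.42 to 0.90 and RAB17 from -0.88 to 1.95 on the log2 scale, highest without untreated replicate 3, and without the 3 libraries that stand apart CPT1A was -0.59 and MDM2 -0.56. Of the calls named, 8 were lost against untreated replicate 3 alone (BAX, CRYAA, GABARAP, GABARAPL2, MCM5, NDUFS6, SLC30A1 and ULK1, adjusted p from 0.051 to 0.803) and 11 with only the 6 knockout libraries (FTL, HAMP, HSPB1, MT-CYB, NDUFS6, NFE2L2, SLC30A1, SQSTM1, SRXN1, UBB and ULK1, from 0.0513 to 0.139); none of these changed direction. Depth limits the lowest genes, since 3 counts are 3.07 CPM in untreated replicate 2.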
